A study of Saccharomyces cerevisiae with 4 samples.

Results

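Aldo-keto reductases and aldehyde dehydrogenases are among the enzymes with which budding yeast disposes of aldehydes and ketones. Genes of these families were followed through heat shock and through rapamycin treatment meant to withdraw the heat shock factor Hsf1. They were chosen by systematic name. The aldo-keto reductase genes were GRE3 (YHR104W), GCY1 (YOR120W), YPR1 (YDR368W) and ARA1 (YBR149W). The aldehyde dehydrogenase genes were ALD2 (YMR170C), ALD3 (YMR169C), ALD4 (YOR374W), ALD5 (YER073W) and ALD6 (YPL061W). These were 9 of the 7126 features listed, and all 9 were among the 5642 features with a mean of at least 5 normalised reads over the libraries.

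RNA was sequenced from 4 samples of Saccharomyces cerevisiae strain DPY438, whose genotype label is Hsf1-AA, with 1 library per group. Cells at 30 °C were sampled untreated and after 45 min in 1 µM rapamycin. The other samples were heat-shocked at 39 °C for 10 min, 1 of them without rapamycin and 1 with 1 µM rapamycin for 45 min. All 4 samples carried the anchor-away form of Hsf1, and rapamycin is the agent that withdraws it from the nucleus, so no library came from a strain with unmodified Hsf1. Rapamycin also inhibits the growth regulator TORC1 in sensitive strains, and the labels do not say whether this strain was resistant or in which order heat and drug were given. With 1 library per group the differences have no replicate check, and the ratios are given without a test. A difference of at least 2-fold, 1 on the log2 scale, was taken as a rule of size. Folds are ratios of normalised reads after a pseudocount of 1 was added, and the ranges in parentheses are 95% intervals for counting error only. In bulk RNA, fewer cells making a transcript and less transcript per cell cannot be told apart.

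Aldo-keto reductases use NADPH to reduce sugars, methylglyoxal and other carbonyl compounds to alcohols. Aldehyde dehydrogenases oxidise aldehydes to acids and yield NADH or NADPH. In yeast growing on glucose, acetaldehyde made from pyruvate goes mostly to ethanol, and a smaller flow through Ald6 in the cytosol and Ald4 and Ald5 in mitochondria gives acetate, the precursor of acetyl-CoA. The enzymes of ALD2 and ALD3, a tandem gene pair, make beta-alanine for pantothenate synthesis, and the genes are known as stress-inducible. Several of these genes are known targets of the general stress factors Msn2 and Msn4, which bind the stress response element.

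Recovered reads numbered 1561620 and 3231228 in the 30 °C libraries, first without and then with rapamycin, and 2026880 and 2254007 in the heat shock libraries. The 9 genes took 0.146% (0.140% to 0.152%), 0.154% (0.150% to 0.159%), 0.461% (0.452% to 0.470%) and 0.423% (0.415% to 0.432%) of these reads in the same order, each with an exact Clopper-Pearson interval. HSF1 mRNA stood at 157, 107, 288 and 225 normalised reads, but anchoring moves the protein and leaves the gene in place, so these values do not check the withdrawal. SSA4, a heat-inducible Hsp70 gene that depends on Hsf1, was at 169, 525, 42107 and 402 in the same order, and CTT1, a catalase gene of the Msn2/4 type, at 124, 114, 4942 and 5441. Among all features called in heat shock without rapamycin 50.6% were higher, and on library totals, where every value is a share of its library, 29.9%. With rapamycin the same shares were 55.6% and 78.5%. For rapamycin against none they were 53.9% and 16.4% at 30 °C, and 64.9% and 92.0% in heat shock. For the difference between the heat ratios of the arms they were 52.7% and 94.97%. That scaling shifted the median log2 ratio of all features from 0.02 to -0.42 in heat shock without rapamycin, from -0.00 to 0.40 with it, from 0.01 to -0.34 for rapamycin at 30 °C, from 0.04 to 0.53 for rapamycin in heat shock and from 0.06 to 0.90 for the difference of heat ratios. Where the sign of a ratio printed below turns on library totals, its value there is given.

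The 300 bases before the start codon are shown for GRE3, the gene that differed most with rapamycin in heat shock, and for the paralog pairs GCY1 with YPR1 and ALD3 with ALD2, whose members differed in their heat shock response. The sequences are from the RefSeq R64 assembly, the assembly that sacCer3 names, on the strand of each gene, and capitals mark the stress response element AGGGG or its reverse complement CCCCT.
GRE3 promoter (chrVIII:323109-323408, forward strand): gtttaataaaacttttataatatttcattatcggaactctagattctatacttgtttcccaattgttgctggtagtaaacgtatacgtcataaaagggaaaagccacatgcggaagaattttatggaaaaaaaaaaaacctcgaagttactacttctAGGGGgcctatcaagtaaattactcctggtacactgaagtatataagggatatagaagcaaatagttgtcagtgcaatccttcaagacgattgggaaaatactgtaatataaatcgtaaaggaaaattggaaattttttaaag
GCY1 promoter (chrXV:550814-551113, forward strand): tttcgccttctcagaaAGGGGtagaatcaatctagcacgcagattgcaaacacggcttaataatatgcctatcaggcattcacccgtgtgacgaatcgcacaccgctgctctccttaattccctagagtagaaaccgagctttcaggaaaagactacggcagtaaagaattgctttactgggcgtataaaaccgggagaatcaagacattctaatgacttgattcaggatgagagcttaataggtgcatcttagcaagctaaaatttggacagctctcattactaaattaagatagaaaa
YPR1 promoter (chrIV:1213604-1213903, forward strand): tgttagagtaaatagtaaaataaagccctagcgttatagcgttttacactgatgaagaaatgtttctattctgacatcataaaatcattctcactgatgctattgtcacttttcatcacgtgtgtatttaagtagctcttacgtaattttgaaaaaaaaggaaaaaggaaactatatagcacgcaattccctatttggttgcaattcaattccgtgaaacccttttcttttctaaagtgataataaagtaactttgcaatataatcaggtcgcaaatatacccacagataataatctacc
ALD3 promoter (chrXIII:600873-601172, reverse strand): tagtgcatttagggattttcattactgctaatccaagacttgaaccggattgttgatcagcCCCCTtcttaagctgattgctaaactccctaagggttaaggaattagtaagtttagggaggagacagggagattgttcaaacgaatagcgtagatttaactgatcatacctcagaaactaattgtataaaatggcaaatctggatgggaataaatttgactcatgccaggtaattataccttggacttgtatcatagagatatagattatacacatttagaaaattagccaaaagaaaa
ALD2 promoter (chrXIII:603083-603382, reverse strand): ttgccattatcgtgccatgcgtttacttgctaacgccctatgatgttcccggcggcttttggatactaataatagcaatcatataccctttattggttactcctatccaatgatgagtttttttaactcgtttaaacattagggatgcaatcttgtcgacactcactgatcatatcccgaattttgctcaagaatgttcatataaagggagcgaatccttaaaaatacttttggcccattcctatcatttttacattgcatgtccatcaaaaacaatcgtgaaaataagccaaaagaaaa
The element stands within the printed 300 bases before GRE3, GCY1 and ALD3, and is not among those of YPR1 and ALD2. The 300 bases before ARA1, ALD4, ALD6 and ALD5 also hold it, and ALD5 was lower in heat shock. Of all windows of 300 bases 22.2% hold it. Over 500 bases before the start codon, searched on both strands, 7 of the 9 genes held at least 1 AGGGG: GRE3, GCY1, ARA1, ALD3, ALD4, ALD5 and ALD6. Of 6019 protein-coding genes, 34.0% did so in windows of the same length. The Yap1 site TTACTAA, a motif of the oxidative stress factor Yap1, was found before GCY1, ALD3 and ALD4, against 11.8% of all windows. A full heat shock element, taken as at least 3 alternating GAA and TTC units with any 2 bases between them, was found before 0 of the 9 genes and in 1.48% of all windows. The shorter form with 2 such units, which every full element also holds, was found before GCY1, YPR1, ARA1 and ALD2, against 35.1% of all windows. Windows of 500 bases can reach into the neighbouring gene, which lies 281 bases before ARA1, 288 before ALD6, 289 before YPR1, 436 before GRE3 and 450 before ALD4. Before ARA1, ALD6 and YPR1 the first few of the 300 bases also lie in that gene. A match of letters is not a measured binding site, and the lack of one says nothing of the factor.

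**Figure D1:**
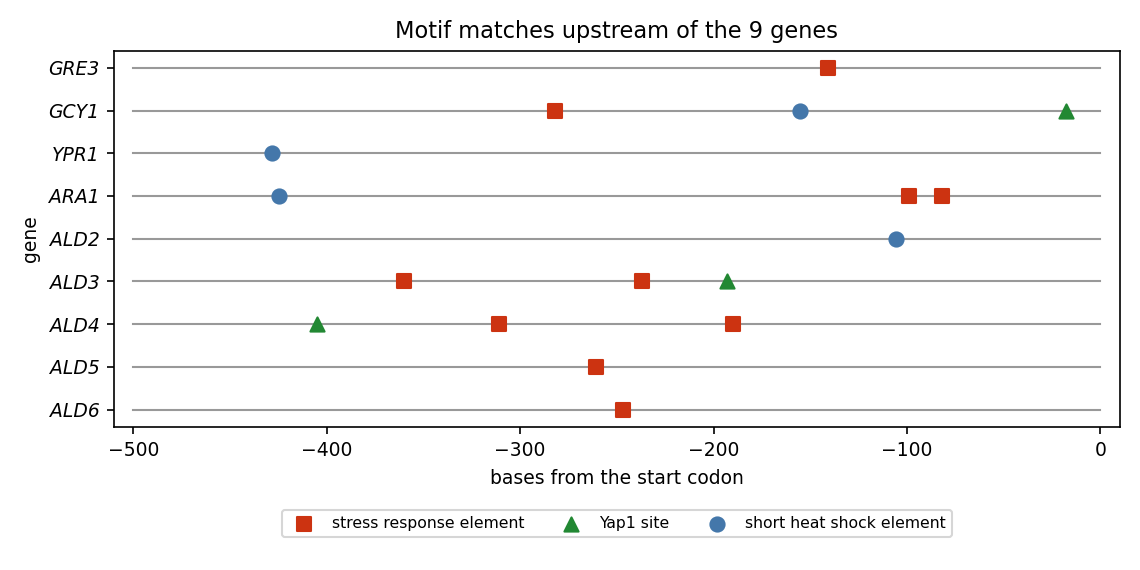
Positions of motif matches (horizontal axis, bases from the start codon) in the 500 bases upstream of each of the 9 genes (vertical axis). Squares are stress response elements, triangles Yap1 sites and circles the 2-unit heat shock element; 7 genes have a square, YPR1 and ALD2 have a circle only, and GRE3, ALD5 and ALD6 have a single square each and no other match.

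Levels between genes were compared per kilobase of coding length. At 30 °C without rapamycin ALD6, the cytosolic NADP-dependent acetaldehyde dehydrogenase gene, was highest at 1185 normalised reads per kilobase. ARA1 followed at 367, ALD5 at 263, YPR1 at 234 and GRE3 at 196, then GCY1 at 83.7 and ALD4 at 78.8, with ALD3 at 29.1 and ALD2 at 22.6 lowest. Heat shock changed this order. GRE3 was highest at 3588 per kilobase in heat shock without rapamycin, ahead of ALD6 at 2866, GCY1 at 1300, ALD3 at 1190, ALD4 at 1077 and ARA1 at 973. YPR1 at 275, ALD5 at 78.7 and ALD2 at 45.3 came last. In heat shock with rapamycin ALD6 was again highest at 2363 per kilobase, and GCY1 followed at 1048 and ALD3 at 894, then GRE3 at 821 next to ARA1 at 815, and ALD4 at 697. With single libraries the order of neighbours has no spread to be set against.

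**Figure D2:**
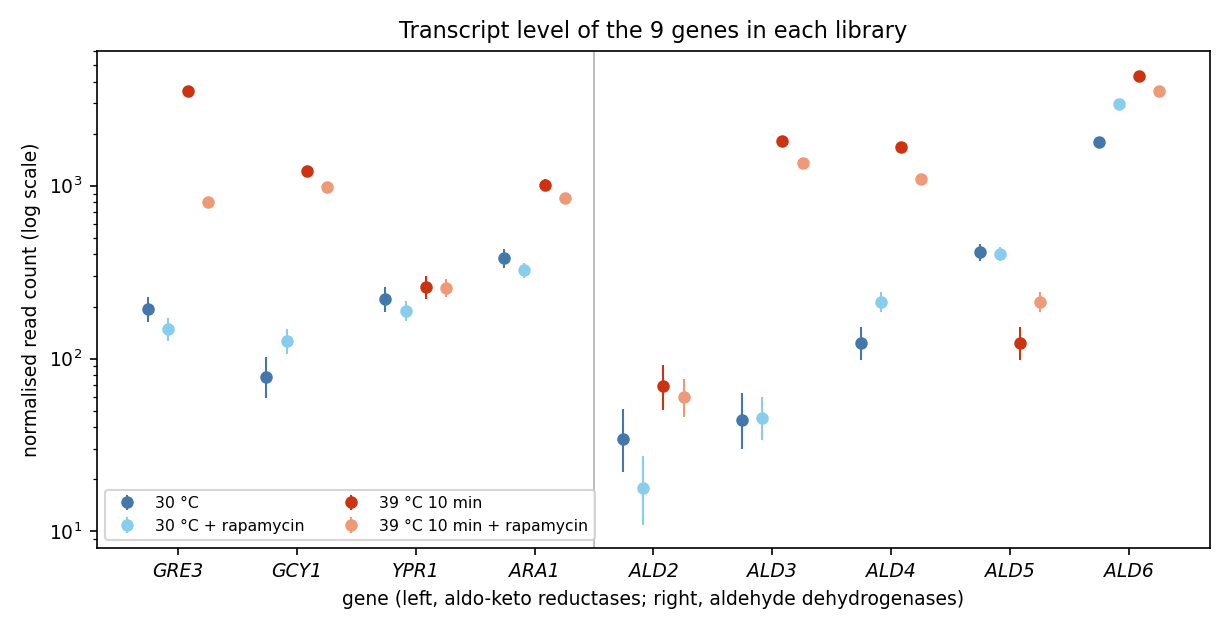
Normalised read count (vertical axis, log scale) of the 9 genes (horizontal axis) in the 4 libraries, 1 point per library, with 95% Poisson intervals of the reads as bars. GRE3, GCY1, ALD3 and ALD4 lie far higher in both heat shock libraries than at 30 °C, ALD5 lies lower, and GRE3 has the widest gap between the heat shock libraries, 3531 without and 808 with rapamycin.

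The first comparison asked how these transcripts differed after 10 min at 39 °C without rapamycin. Of the 9 genes, 6 were at least 2-fold higher, where 19.8% of all features were, and 1 was at least 2-fold lower, where 19.3% of all features were. The 6 were GRE3, GCY1, ARA1, ALD3, ALD4 and ALD6, and the gene that was lower was ALD5. The median log2 ratio of the 9 was 1.40, beside 0.02 over all features. On library totals the ratios of ARA1 (log2 0.96) and ALD6 (0.83) lay under the size rule, and the other 4 higher genes and ALD5 stayed past it, on a scaling that put 12.8% of all features past 2-fold upwards and 30.1% downwards.

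Among the aldo-keto reductases, GRE3 (chromosome VIII, 323409 to 324392) encodes the main aldose reductase, which reduces xylose and methylglyoxal. Its level was 193 normalised reads before and 3531 after the shift to 39 °C, 18.2-fold higher (15.4 to 21.9), the rank of 73 from the highest among 5642 features. GCY1 (chromosome XV, 551114 to 552052), the gene of a reductase that also oxidises glycerol to dihydroxyacetone, went from 78.6 to 1220.4, 15.3-fold higher (11.8 to 20.8). Its paralog YPR1 (chromosome IV, 1213904 to 1214842), whose product reduces branched-chain aldehydes, was at 220.2 and 258, 1.17-fold higher with an interval that includes no difference (0.94 to 1.47), and its log2 ratio of 0.23 became -0.22 on library totals. The coding sequences of GCY1 and YPR1 are identical at 66.3% of aligned bases and share 0 windows of 50 bases, so their reads can be told apart. ARA1 (chromosome II, 539987 to 541021), an arabinose dehydrogenase gene, was at 380.3 and 1008, 2.64-fold higher (2.30 to 3.07).

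In the aldehyde dehydrogenase group, ALD3 (chromosome XIII, 599352 to 600872) had the highest ratio, going from 44.3 normalised reads to 1809.6, which is 39.95-fold higher (28.6 to 60.4), rank 24 among 5642. Its tandem neighbour ALD2 (601562 to 603082) was at 34.3 and 69.0, 1.98-fold higher (1.20 to 3.44). This ratio fell short of 2-fold by little and rests on 24 and 46 reads. Their coding sequences are identical at 91.8% of aligned bases, and 40.4% of the 50-base windows of each occur in the other, so how the reads of shared stretches were divided or dropped is uncertain. Summed, the pair was 23.6-fold higher (18.2 to 31.9). ALD4 (chromosome XV, 1039840 to 1041399), the main mitochondrial acetaldehyde dehydrogenase gene, went from 123 to 1681, 13.6-fold higher (11.0 to 17.2). ALD5 (chromosome V, 304030 to 305592), the gene of the minor mitochondrial form, went the other way, from 412 to 123, 3.33-fold lower (2.61 to 4.33). ALD6 (chromosome XVI, 432588 to 434090) was at 1781 and 4307, 2.42-fold higher (2.26 to 2.59). The 2 mitochondrial genes thus changed places: ALD5 was above ALD4 per kilobase at 30 °C and far below it in heat shock.

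The same heat shock was then examined in the rapamycin arm, which consists of the other 2 libraries. Of the 9 genes, 6 were at least 2-fold higher, where 18.3% of all features were, and 0 were at least 2-fold lower, where 14.6% of all features were. They were GRE3, GCY1, ARA1, ALD2, ALD3 and ALD4, and the median log2 ratio of the 9 was 1.69 beside -0.00 over all features. Dividing by library totals left the same 6 genes past 2-fold, where 28.0% of all features were higher by that much.

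ALD3 again had the highest ratio, at 45.3 and 1359, 29.4-fold higher (22.7 to 40.5), rank 14 among 5642. GCY1 was at 126 and 984, 7.75-fold higher (6.54 to 9.36). GRE3 was at 148 and 808, 5.42-fold higher (4.61 to 6.47), and ALD4 at 213 and 1087, 5.08-fold higher (4.43 to 5.88). Thus the genes with large ratios without rapamycin remained far above their 30 °C level with it. ALD2 was at 17.8 and 59.6, 3.23-fold higher (1.997 to 5.86) on 20 and 62 reads, and ALD2 with ALD3 summed was 22.2-fold higher (17.7 to 29.0). ARA1 was at 323 and 844, 2.60-fold higher (2.31 to 2.96). YPR1 was at 188 and 257, 1.37-fold higher (1.14 to 1.64). ALD6 was at 2960.05 and 3552, 1.20-fold higher (1.14 to 1.26), and ALD5 at 404 and 212, 1.90-fold lower (1.62 to 2.25). These last 3 genes lay between the thresholds.

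**Figure D3:**
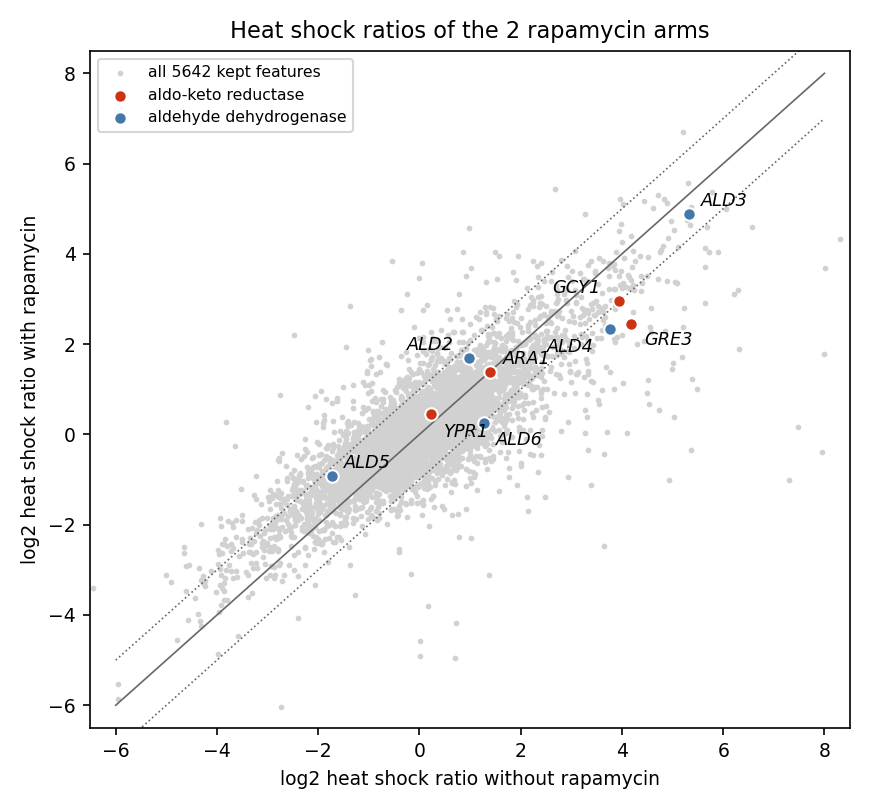
Log2 heat shock ratio without rapamycin (horizontal axis) against that with rapamycin (vertical axis), with each of the 5642 features in grey and the 9 genes in colour. The solid line marks equal ratios and the dotted lines a 2-fold difference between them; GRE3, ALD4 and ALD6 lie below the lower dotted line, GCY1 lies almost on it, and ARA1 and ALD3 lie near the solid line.

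The heat shock ratios of the 2 arms were then set against each other, which asks how far a heat response differed with rapamycin. Of the 9 genes, 3 had a ratio at least 2-fold smaller with rapamycin, where 8.29% of all features did, and 0 had one at least 2-fold larger, where 9.25% did. They were GRE3, ALD4 and ALD6. The median difference over the 9 was -0.44 on the log2 scale, beside 0.06 over all features, and on library totals 0.40 beside 0.90. On library totals no gene of the 9 had a ratio at least 2-fold smaller and 3 had one at least 2-fold larger, namely ALD5 (log2 1.66), ALD2 (1.53) and YPR1 (1.07), so these calls depend on the scaling. On that scaling 2.32% of all features had a ratio at least 2-fold smaller and 43.8% one at least 2-fold larger.

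GRE3 had the largest drop, from a log2 ratio of 4.19 to 2.44, a difference of -1.75 (-2.11 to -1.39), rank 140 from the lowest among 5642. On library totals its difference was -0.90, against a median of 0.90 over all features. ALD4 went from 3.76 to 2.34, a difference of -1.42 (-1.82 to -1.04). For ALD6 the log2 ratio went from 1.27 to 0.26, a difference of -1.01 (-1.13 to -0.89) at the edge of the size rule, and GCY1 at -0.99 (-1.49 to -0.51) fell just short of it. On the deposited scale the difference thus appeared in members of each family. On library totals it was -0.57 for ALD4, -0.16 for ALD6 and -0.14 for GCY1, against the same median of 0.90. ALD3 had a difference of -0.44 (-1.15 to 0.24) that turned to 0.40 on library totals, and ARA1 had -0.02 (-0.30 to 0.25), which turned to 0.83. YPR1 at 0.22 (-0.20 to 0.64) and ALD2 at 0.70 (-0.37 to 1.85) also had intervals that include 0. ALD5, the gene that was lower in heat, had the opposite sign, 0.81 (0.38 to 1.26), its drop being smaller with rapamycin.

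A difference between the heat ratios can come from the heat shock libraries, from the 30 °C libraries or from both, so rapamycin was compared at each temperature. These comparisons use the same 4 libraries again. At 30 °C, 0 of the 9 genes were at least 2-fold higher, where 4.70% of all features were, and 0 at least 2-fold lower, where 4.02% were. The median log2 ratio of the 9 was -0.03, beside 0.01 over all features. In heat shock 0 were at least 2-fold higher, where 4.56% of all features were, and 1 was at least 2-fold lower, where 2.46% were. That gene was GRE3, and the median of the 9 was -0.28, beside 0.04 over all features. On library totals that median of the 9 was 0.21, beside 0.53.

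GRE3 was 4.37-fold lower with rapamycin in heat shock (4.04 to 4.73), 808 normalised reads against 3531, the rank of 5590 from the highest among 5642. At 30 °C it was 1.30-fold lower with rapamycin (1.03 to 1.64). GRE3 was thus lower with rapamycin at both temperatures, and more so in heat shock. On library totals it was still lower, by a log2 ratio of -1.64 in heat shock and -0.74 at 30 °C. For comparison, the 12 listed Hsf1-target chaperone genes, all 12 of them at least 2-fold lower with rapamycin in heat shock, had a median log2 ratio of -4.96, and the 12 listed Msn2/4-type genes had a median of -0.19 with 1 at least 2-fold lower, a median that became 0.30 on library totals. GRE3 at -2.13 lay between these medians, but within the range of the Msn2/4-type list, where SPI1 was at -2.25. The least changed of the Hsf1-target genes was HSP42 at -2.78.

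ALD4, ALD6 and GCY1 showed another arrangement, higher with rapamycin at 30 °C and lower with it in heat shock. ALD4 was 1.73-fold higher at 30 °C (1.35 to 2.25), at 213 against 123, and 1.55-fold lower in heat shock (1.42 to 1.68), at 1087 against 1681. ALD6 was 1.66-fold higher at 30 °C (1.56 to 1.77) and 1.21-fold lower in heat shock (1.15 to 1.27), the latter with a log2 ratio of -0.28 that became 0.21 on library totals. GCY1 was 1.60-fold higher at 30 °C (1.17 to 2.23) and 1.24-fold lower in heat shock (1.13 to 1.36), and its log2 ratio in heat shock turned from -0.31 to 0.18 on library totals. None of these 6 ratios reached 2-fold. The same arrangement, with both counting intervals leaving out no difference, was found in 233 of the 5642 features (4.13%). It was also found in 7 of the 12 Msn2/4-type genes and in 3 of the 12 Hsf1-target chaperone genes. For GRE3 the smaller heat ratio with rapamycin came from the heat shock libraries, and its lower 30 °C level with rapamycin worked against it. For ALD4, ALD6 and GCY1 the 30 °C libraries gave the larger part on the deposited scale.

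The other genes lay under 2-fold at each temperature on the deposited scale. ALD5 was 1.02-fold lower with rapamycin at 30 °C (0.88 to 1.18) and 1.72-fold higher in heat shock (1.33 to 2.25), at 212 against 123. On library totals its log2 ratio in heat shock went from 0.78 to 1.27, past 2-fold upwards, where 15.3% of all features were. ARA1 was 1.18-fold lower at 30 °C (1.00 to 1.38) and 1.19-fold lower in heat shock (1.08 to 1.32), the latter with a log2 ratio of -0.26 that became 0.23 on library totals. ALD3 was 1.33-fold lower in heat shock (1.23 to 1.44), a log2 ratio of -0.41 that became 0.08 on library totals, and at 30 °C its log2 ratio of 0.03 became -0.32. ALD2 was 1.88-fold lower at 30 °C (1.02 to 3.69), with 20 reads against 24 in the shallower library. In heat shock it was 1.16-fold lower (0.77 to 1.72), a log2 ratio of -0.21 that became 0.27 on library totals. YPR1 had log2 ratios of -0.22 at 30 °C and -0.00 in heat shock, with intervals that include no difference, and the latter became 0.48 on library totals.

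**Figure D4:**
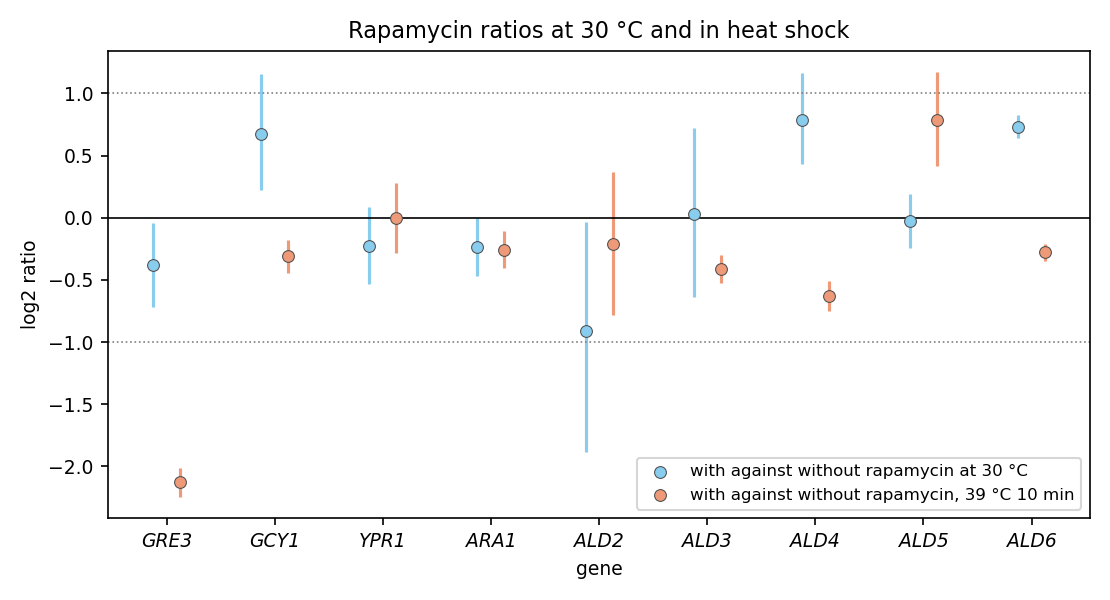
Log2 ratio of the library with rapamycin to that without (vertical axis) for each of the 9 genes (horizontal axis), at 30 °C and after 10 min at 39 °C; bars are 95% counting intervals and dotted lines mark 2-fold. GRE3 in heat shock, at -2.13, is the only point past 2-fold, and ALD4, ALD6 and GCY1 lie above 0 at 30 °C and below 0 in heat shock.

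The genes with the most similar pattern over the 4 libraries were sought among 5094 protein-coding genes with a mean of at least 20, by Euclidean distance between log2 values centred on each gene's mean. Nearest to GRE3 was SSE2, an Hsp110-type exchange factor gene, at a distance of 0.33 with 113, 97.7, 2237 and 396 normalised reads, followed by RTS3 at 0.44. Nearest to ALD3 were SOL4, a 6-phosphogluconolactonase gene, at 0.26 and DCS2, a gene of mRNA cap metabolism, at 0.33. GCY1 had YKL091C at 0.11 and YOL014W at 0.24. ALD4 had SDP1, a MAP kinase phosphatase gene, at 0.20 and GOR1, a glyoxylate reductase gene, at 0.24. Within the 9 genes, GCY1 and ALD4 were each other's nearest, at 0.46. ARA1 lay closest to ATP7, an ATP synthase subunit gene, at 0.05 and to SSN8, the cyclin C gene, at 0.08, and ALD2 to QCR10 of respiratory complex III at 0.07 and to MEO1 at 0.12. ALD5 lay closest to PRS3, a phosphoribosyl pyrophosphate synthetase gene, at 0.03 and to the ribosomal protein gene RPL9A at 0.07, whose close copy RPL9B makes its reads uncertain. ALD6 lay closest to the autophagy gene ATG23 at 0.11 and to HUA1 at 0.13. With 4 libraries and so many genes, some close neighbours are to be found for any gene.

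Other members of the same families and the genes on either side of them in metabolism were described by lists chosen with earlier results known. Their counts are to be read beside the 19.8% of all features that were at least 2-fold higher in heat shock without rapamycin and the 18.3% with it, and the 19.3% and 14.6% that were lower. Of the other 4 aldo-keto reductase genes, 3 were at least 2-fold higher in heat shock in each arm, with medians of 2.89 without and 2.42 with rapamycin. YDL124W, an alpha-keto amide reductase gene, was at 356 and 2384 normalised reads without rapamycin and at 372 and 2353 with it. YJR096W, a xylose and arabinose reductase gene, had log2 ratios of 3.42 and 2.79, and ARA2, the NAD-dependent arabinose dehydrogenase gene, 3.04 and 2.19. YPL088W at 0.38 and -0.08 stayed between the thresholds, and these became -0.05 and 0.32 on library totals. So 3 of 4 genes in this list, like 3 of the 4 aldo-keto reductases above, were past 2-fold in heat shock in each arm.

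Of the 7 aryl-alcohol dehydrogenase genes, 6 were kept, and their medians were -0.02 without and 0.02 with rapamycin, with AAD10 the highest at 1.94 and 1.11. Without rapamycin 2 passed 2-fold upwards and 1 downwards, and with it 1 did so upwards. This family has near-identical subtelomeric copies and low counts. Of the other 5 aldehyde dehydrogenase genes, HFD1, a fatty aldehyde dehydrogenase gene (log2 2.43 and 1.75), and UGA2, succinate semialdehyde dehydrogenase of the GABA pathway (2.36 and 1.38), were at least 2-fold higher in each arm. MSC7, PUT2 and PRO2 stayed between the thresholds. The medians of this list were 0.32 and 0.70, the former -0.12 on library totals. UGA2 was also at least 2-fold higher with rapamycin at 30 °C (log2 1.14), at 57.7 normalised reads against 25.7.

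In the list around the acetaldehyde step, 3 of 6 genes were at least 2-fold higher in each arm, with medians of 0.89 without and 0.81 with rapamycin. They were ACH1, the mitochondrial acetyl-CoA hydrolase and transferase gene (2.45 and 2.64), the acetyl-CoA synthetase gene ACS1 (1.30 and 1.69) and PDC6 (1.45 and 1.87), a minor pyruvate decarboxylase gene with at most 22.1 normalised reads. The fold interval of PDC6 without rapamycin, 0.79 to 18.1, includes no difference. The main pyruvate decarboxylase gene PDC1 (-0.03 and -0.48) and the acetyl-CoA synthetase gene ACS2 (0.05 and -0.07, on library totals -0.39 and 0.33) lay between the thresholds. Among 8 alcohol dehydrogenase genes, 7 of them kept, ADH1, ADH2 and ADH5 were at least 2-fold higher without rapamycin and ADH4 lower, and with rapamycin ADH5 was higher and ADH4 lower (medians 0.96 and -0.17, the latter 0.24 on library totals). ADH2 rests on few reads, and its 3.02-fold ratio has an interval that includes no difference (0.90 to 19.8). ADH1, the main fermentative enzyme gene, went from 5762 to 12649 without rapamycin (1.13) and from 9396 to 8652 with it (-0.12, on library totals 0.29). Its coding sequence is like that of ADH2, so the split of reads between these is uncertain. Like ALD6, ADH1 was higher with rapamycin at 30 °C (0.71) and lower in heat shock (-0.55), and its heat ratio differed by -1.25 between arms. On library totals these were 0.34, -0.06 and -0.40, the last beside a median of 0.90 over all features.

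Among 11 genes for methylglyoxal and other carbonyl compounds, 7 passed 2-fold upwards and 1 downwards without rapamycin (median 1.78), and 6 upwards with it (median 1.32). GRE2, a methylglyoxal reductase gene, had log2 ratios of 2.32 and 2.01, the glyoxalase gene GLO1 2.19 and 1.76, and HSP31, a glyoxalase of the DJ-1 family, 2.14 and 2.43. GLO4, the mitochondrial glyoxalase II gene, had 2.06 without and 0.53 with rapamycin, and was at 18.6 and 56.9 in the 30 °C libraries. After xylose reductase, XYL2 (2.45 and 1.94) and XKS1 (2.39 and 1.93) were at least 2-fold higher in each arm (medians 2.42 and 1.94), and the sorbitol dehydrogenase genes SOR1 and SOR2, near-identical copies, are listed at 0.

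In the glycerol list, 8 of 9 genes were kept, and 5 passed 2-fold upwards and 1 downwards in each arm (medians 1.67 and 1.35). DAK1, the kinase gene for the dihydroxyacetone that Gcy1 makes, had log2 ratios of 1.87 and 1.52, and the glycerol phosphate dehydrogenase gene GPD1 2.59 and 2.73. The lower gene was GPP1 (-1.18 and -1.09). Of 7 other genes of NADPH supply, GND2, a minor phosphogluconate dehydrogenase gene, was at least 2-fold higher (4.72 and 5.30), while ZWF1 (0.61 and 0.08) and GND1 (0.18 and -0.36, on library totals -0.26 and 0.05) were between the thresholds. MAE1, the mitochondrial malic enzyme gene, was lower in each arm (-2.77 and -2.12), and IDP1 was at least 2-fold lower without rapamycin (-1.31). The medians of this list were 0.58 and 0.08. In the polyamine and pantothenate list, to which the product of Ald2 and Ald3 belongs, FMS1 was higher in each arm (2.14 and 1.37). FMS1 is the polyamine oxidase gene just before ALD2 and ALD3 in that route. ECM31 passed 2-fold upwards with rapamycin (1.28), from a 30 °C value that was lower with rapamycin (log2 -1.42). It was at 65.8 and 24.0 at 30 °C without and with rapamycin, and at 76.5 and 59.6 in heat shock. SPE4 (-2.67 and -1.44) and the pantothenate synthase gene PAN6 (-1.19 and -1.01) were lower. Medians of that list were -0.12 and -0.30, the latter 0.10 on library totals.

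**Figure D5:**
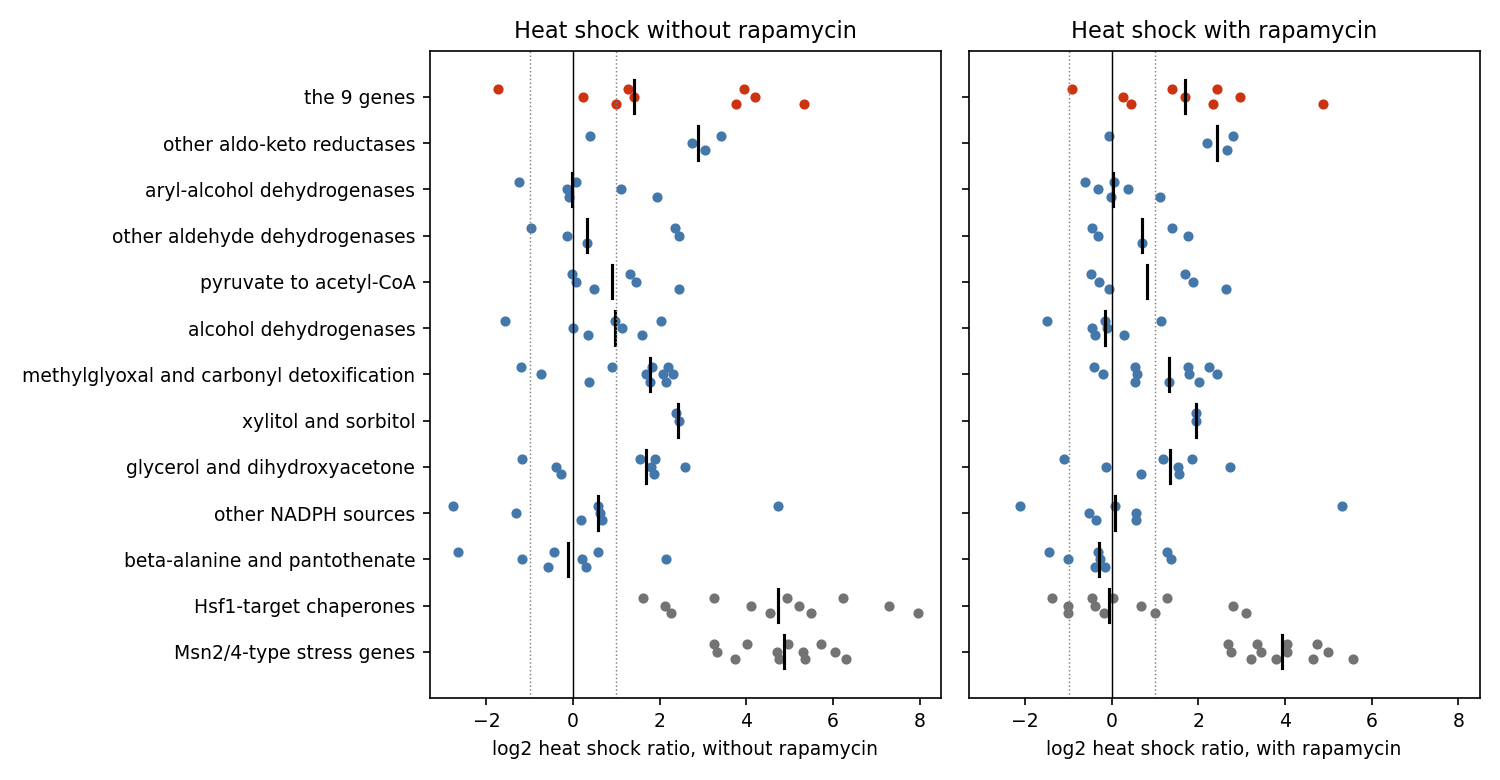
Log2 heat shock ratio (horizontal axis) of each kept gene in 13 lists (vertical axis), without rapamycin on the left and with it on the right; black bars are list medians and dotted lines mark 2-fold. The Hsf1-target chaperones go from a median of 4.74 on the left to -0.07 on the right (0.33 on library totals), while the 9 genes have medians of 1.40 and 1.69 and the Msn2/4-type genes 4.86 and 3.92.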

How the data were processed

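RNA of 4 samples was sequenced, 1 library per group. Per the labels, total RNA was extracted with phenol and chloroform and libraries were made with Illumina TruSeq chemistry. Per the submitters' processing notes, TopHat and HTSeq were used with sacCer3; the notes hold no version or option. Strand handling, read length and the treatment of reads that match several genes are therefore unknown here. The signal values deposited by the authors behave as read counts per gene scaled by a single factor for each library, since 100% of the values above 0 are whole multiples of 1 step within 0.0055 after rounding to 2 decimals. A read was worth 1.43, 0.888, 1.50 and 0.961 units in the libraries at 30 °C without and with rapamycin and in heat shock without and with it.

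From these values log2(value + 1) ratios of 2 libraries were computed over the 5642 of 7126 features with a mean of at least 5. Gene coordinates and sequences are from RefSeq R64, in which all 9 genes have 1 coding exon and no overlapping RefSeq gene. YOR121C, a dubious frame that overlaps GCY1 on the other strand, was at 1.43, 0, 9 and 7.69 normalised reads. Fold intervals are exact conditional binomial intervals of the recovered reads, and those of a difference of ratios are exact conditional intervals of the odds ratio. They cover counting error only, as reads carry no molecular identifiers and may be copies of one another. Other scalings, pseudocounts, filters, summed paralogs and a count test with edgeR 4.0.16 on recovered reads were also tried. That test used an additive model of heat and rapamycin with 1 residual degree of freedom, which compares these libraries and not the conditions. The code was tested on simulated data with scipy 1.17.1. The genes and the 12 gene lists were chosen with earlier results of these data known. By the rule for names, the 9 genes and the 2 nearest patterns per gene past 2-fold in heat are named. List genes past 4-fold could be named, though not all were, and otherwise up to 3 of the largest changes in a list. Library totals for the lists were added after seeing the data. Other list genes named in the text were chosen after their values were seen.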

Additional observations from a re-analysis of the deposited data

Results flagged for a closer look

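Rapamycin ratios of opposite sign at 30 °C and in heat shock, each with a counting interval that leaves out no difference, were found for 3 of the 9 genes. Over all features 4.13% (233 of 5642) were likewise higher at 30 °C and lower in heat shock and 2.57% were the reverse. The former pattern was found in 7 of the 12 listed Msn2/4-type genes and 3 of the 12 listed Hsf1-target chaperone genes. ALD4 had log2 ratios of 0.79 at 30 °C and -0.63 in heat shock. ALD6 had 0.73 and -0.28, and GCY1 had 0.68 and -0.31. On library totals ALD4 kept opposite signs, 0.43 and -0.14, while ALD6 (0.37 and 0.21) and GCY1 (0.32 and 0.18) did not. Each ratio rests on 1 library per group, and the difference between temperatures was not tested.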

How the results depend on the processing

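With 1 library per group no library could be left out. No paired analysis was possible because each group holds 1 library and the labels give no replicate numbers. Pseudocounts of 0.25 and 5, TMM, recomputed median-of-ratios factors and a filter at a mean of 20 left every count within 1.5 times of that reported. Without a filter, features past 2-fold numbered 800 for rapamycin at 30 °C and 668 in heat shock. Division by the library total and by the protein-coding total changed more. Rapamycin in heat shock then gave 941 and 674 features and 2 of the 9 genes under each, 1 of them higher. Of all features 15.3% were higher and 1.33% lower on library totals, and 10.4% and 1.60% on the protein-coding total. At 30 °C each gave 1 of the 9, lower. Of all features 10.3% were lower there on library totals and 7.39% on the protein-coding total. The difference of heat ratios gave 2603 and 1763 features, with 3 and 2 of the 9 genes higher and 0 and 1 lower. Of all features 43.8% and 28.0% were higher and 2.32% and 3.21% lower. These scalings put 36 and 26 of the 45 ratios of the 9 genes outside their counting intervals. No ratio of the 9 genes past 2-fold changed sign under any alternative tried. The edgeR quasi-likelihood test with Benjamini-Hochberg adjustment called 1140 of 5642 features higher and 1090 lower in heat at 0.05. Of the 9 genes it called 7, all but YPR1 and ALD6, with ALD5 lower and the others higher. For rapamycin it called 6 higher and 20 lower and 0 of the 9 genes, where the mean ratio put 1 past 2-fold, and 1 gene, GRE3, had an unadjusted p under 0.05 (0.0111, adjusted 0.451). The 1 residual degree of freedom of that model is the difference of heat ratios between the arms, which it therefore counts as noise. Rapamycin ratios of opposite sign at the 2 temperatures average out in it, as for ALD4 (log2 0.0496). Its calls therefore cannot show that rapamycin made no difference to a gene. Depth limits ALD2 most, with 20 to 62 reads per library. The cause of these changes was not tested.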
